A study of Mus musculus with 3 samples.

Results

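Igf2, H19, Dlk1 and Meg3 are imprinted genes, expressed mainly from 1 parental copy, H19 beside Igf2 on chromosome 7 and Dlk1 beside Meg3 on chromosome 12. The HNF4A and FOXA2 binding regions around them were chosen by position, as every peak in a 300 kb window on chromosome 7 around H19 and Igf2 (chr7:149600000-149900000) and in a 250 kb window on chromosome 12 around Dlk1 and Meg3 (chr12:110600000-110850000). Coordinates are of the mouse build mm9. The windows held 24 of the 21041 peaks in both lists: 14 of 11703 HNF4A peaks and 10 of 9338 FOXA2 peaks. None of the 1263 regions of input chromatin fell in either window. The autosomes and X divide into 8546 stretches of 300 kb, far more than there are input regions, so this absence is ordinary.

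The study mapped both factors by chromatin immunoprecipitation with sequencing (ChIP-seq) in hepatoblasts, liver precursors that give rise to hepatocytes and to the lining of the bile ducts. They were isolated from pooled livers of wildtype C57BL/6 embryos at embryonic day 14.5 and had been enriched magnetically with an antibody against DLK1. Of 3 libraries, 1 was precipitated for HNF4A and 1 for FOXA2, and 1 was input chromatin without precipitation. With 1 library per group no difference has a replicate check, no test was made, and every value describes these lists. Dlk1 is also the gene for the sorted surface protein, so all 3 libraries come from cells selected for its product. Expression was not measured, so the labelled cell type could not be checked against marker genes. The lists give no parental allele, and a peak here may lie on the maternal copy, the paternal copy or both.

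In both loci a growth-related coding gene is active on the paternal copy and a long noncoding RNA on the maternal copy. Igf2 encodes a fetal growth factor that the fetal liver makes in quantity, and H19 is a noncoding RNA that is abundant in the same tissue and falls after birth. The choice between them is set by a differentially methylated control region upstream of H19, where CTCF binding on the maternal copy insulates Igf2 from enhancers that lie beyond H19. Those enhancers, downstream of H19, serve both genes in endoderm. Dlk1 encodes a membrane protein of the Notch ligand type that marks hepatoblasts, and Meg3 is a noncoding RNA. Their control region, also methylated on the paternal copy, lies in the interval between them. HNF4A, a nuclear receptor, maintains the hepatocyte program, while FOXA2, of the forkhead family, is known for reaching its sites in compact chromatin.

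Gene spans were taken as approximate and are given to the nearest 100 bp. H19 ran from about 149761400 to 149764000 and Igf2 from about 149836700 to 149852700, both on the minus strand of chromosome 7. Dlk1 ran from about 110691000 to 110698500 and Meg3 from about 110779200 to 110809900, both on the plus strand of chromosome 12. The deposited score of a peak is a whole number with no stated definition. It was compared only within its own list, as a rank or as the percent of peaks in that list with a lower score. The median score was 23 over all HNF4A peaks and 15 over all FOXA2 peaks.

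Around H19 and Igf2 most peaks were centred downstream of H19, in a segment of 161.4 of the window's 300 kb. Of the 7 HNF4A peaks in the window, 6 were centred beyond the 3' end of H19, 0 between the genes, 1 inside Igf2 and 0 upstream of Igf2. Of the 7 FOXA2 peaks, 6 were centred beyond the 3' end of H19 and 1 between the genes. Beyond H19, up to the edge of the window, each factor had 3.72 peaks per 100 kb. The single HNF4A peak in the 16.0 kb of Igf2 corresponds to 6.25 per 100 kb, a rate that rests on 1 peak and does not show a higher density there. In order along the chromosome, Mrpl23 and Nctc1 lie on that side of H19 in the RefSeq gene table (GRCm38.p6), which was used here only for the order of genes.

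**Figure D1:**
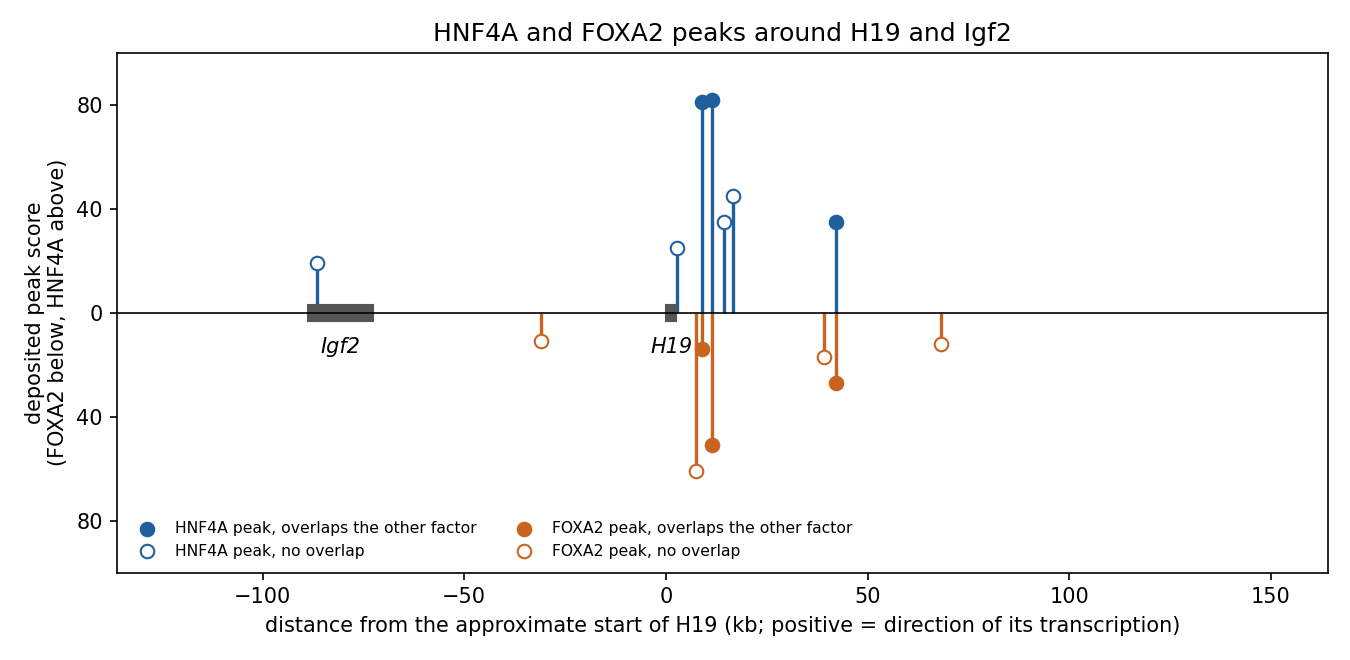
Deposited score of each peak (vertical axis, HNF4A above the line and FOXA2 below) against its distance in kb from the approximate start of H19, over the 300 kb window. Each line with a point is 1 peak, filled where it overlaps a peak of the other factor, and grey boxes are the genes; the highest points of both factors stand just downstream of H19, and the single peak in Igf2 has a score of 19.

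A dense group of peaks followed the end of H19. Within 14.5 kb stood 5 HNF4A peaks, each with the other 4 centred less than 15 kb away, together with 3 FOXA2 peaks. In the whole HNF4A list 249 peaks, or 2.13%, had at least 4 other HNF4A centres within 15 kb. The 3 FOXA2 peaks each had the other 2 within 15 kb, as did 12.4% of all FOXA2 peaks. The group held the highest scores of the window for both factors.

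The site 11.4 kb downstream of the H19 start was high in both lists. Its HNF4A peak, at chr7:149752410-149752800, had a score of 82 and rank 141, and 98.7% of HNF4A peaks scored lower. Its FOXA2 peak, at chr7:149752484-149752837, had a score of 51 and rank 292, and 96.6% of FOXA2 peaks scored lower. The peaks shared 317 bp, 81.1% of the HNF4A width and 89.5% of the FOXA2 width. Pairs of overlapping peaks were also ordered by the lower of their standings in the 2 lists. This pair came 27th of the 2879 pairs in the genome, and it was the highest of the pairs near these genes. The others near these genes came 144th, 396th, 419th, 1419th and 2413th, the last with 0.0% of pairs lower.

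The next site, 8.9 kb downstream of the H19 start, had nearly the same HNF4A score but a low FOXA2 score. The HNF4A peak at chr7:149754823-149755338 had a score of 81 and rank 152. The FOXA2 peak at chr7:149754894-149755401 had a score of 14, below the list's median, with 38.4% of FOXA2 peaks lower. They shared 445 bp. These neighbouring sites thus stood 1 point apart for HNF4A and at 51 and 14 for FOXA2, and with 1 library each this difference has no error to set it against.

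The highest FOXA2 peak around the 4 genes overlapped no HNF4A peak. It lay at chr7:149756464-149756808, 7.4 kb downstream of the H19 start and 4.8 kb past the gene's end, with a score of 61 and rank 142, and 1.7% of FOXA2 peaks scored as high. Its nearest HNF4A centre, that of the peak with a score of 81, was 1555 bp away. Among all 6467 FOXA2 peaks without an overlap, 6.99% had an HNF4A centre within 2 kb. FOXA2 was thus high on both sides of the HNF4A peak at 8.9 kb, with scores of 51 and 61, and low over it.

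The other HNF4A peaks of the group had no FOXA2 overlap. The peak at chr7:149747034-149747577 had a score of 45 and lay 16.7 kb from the H19 start, and that at chr7:149749231-149749829 had a score of 35 and lay 14.5 kb away. Nearest to the gene was chr7:149760836-149761529, with a score of 25 and 54.8% of HNF4A peaks lower. It was 694 bp wide, the broadest peak in either window, and its centre lay 0.2 kb past the end of H19. It reached 130 bp into the gene's span, a length close to the precision of that edge. It was also the nearest HNF4A peak to the H19 start, at 2.8 kb, and the nearest FOXA2 peak was the one 7.4 kb away.

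**Figure D2:**
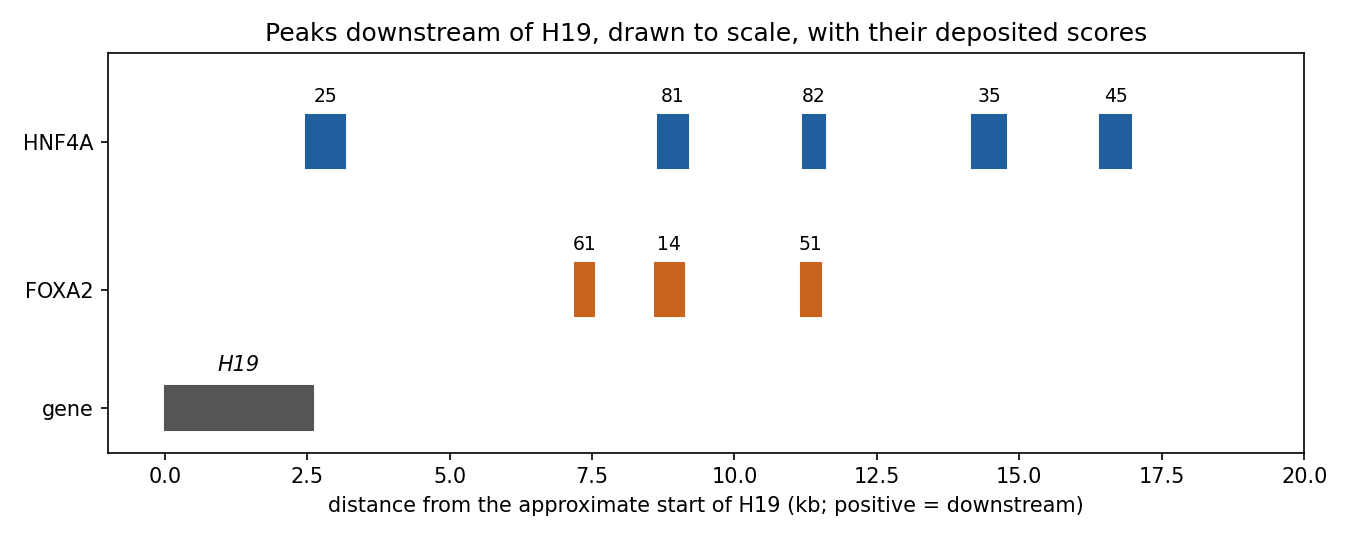
Position and width of each peak from 1 kb before to 20 kb beyond the approximate start of H19, in kb, with HNF4A and FOXA2 peaks on separate lines and the deposited score over each box. FOXA2 boxes sit under the HNF4A boxes with scores of 81 and 82, and the FOXA2 box with a score of 61 has no HNF4A box above it.

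Farther from H19, a shared site stood 42.1 kb downstream of its start. The HNF4A peak at chr7:149721699-149722140 had a score of 35 and the FOXA2 peak at chr7:149721711-149722079 a score of 27, with 77.3% and 83.0% of their lists lower. The whole FOXA2 peak lay inside the HNF4A peak. A FOXA2 peak without HNF4A followed 3.0 kb away at chr7:149724758-149725098, with a score of 17. The FOXA2 peak farthest from H19 was chr7:149695522-149695858, with a score of 12, 1 above the lowest score of that list.

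Between H19 and Igf2, the interval that holds the control region, the lists had 0 HNF4A peaks and 1 FOXA2 peak in 72.7 kb. Of 300 kb tiles along the autosomes and X, 54.9% held no HNF4A peak, so 0 in a shorter interval is ordinary. The mean was 1.09 FOXA2 peaks per 300 kb tile, so 1 in 72.7 kb is not a shortage. The FOXA2 peak between the genes, at chr7:149794673-149795174, had a score of 11, the lowest of the list, which 16.5% of FOXA2 peaks share. It lay 30.9 kb upstream of the H19 start.

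Igf2 itself held a single peak, of HNF4A. It stood at chr7:149850310-149850736, 2.2 kb inside the gene from its approximate start, with a score of 19, rank 7915 and 25.6% of HNF4A peaks lower. This was the lowest HNF4A score in either window. The nearest FOXA2 peak to the Igf2 start was 57.8 kb away, the one with a score of 11 named above. Igf2 has several promoters, and RefSeq gives 4 starts for it. Of these 4 promoters 1, that of the most upstream start, held an HNF4 or FOXA word searched. Any HNF4 word occurred in 12.2% of all RefSeq promoters and any FOXA word in 9.73%, so 1 of 4 is nothing particular to Igf2. The 250 bases before that start are shown because the HNF4A peak lies 2.2 kb inside the approximate upstream edge of the gene. They carry AGTCCA, a short piece of the HNF4 motif, on the opposite strand in capitals, at 8 to 3 bases before the start. AGTCCA on either strand occurs in 11.5% of 32851 RefSeq promoters of the same length, so this match is common. The sequence is from RefSeq (GRCm38.p6, minus strand, chr7:142666817-142667066 of that build). It lies before a RefSeq start, whereas the peak lies inside the gene's approximate mm9 span. Positions in the 2 builds were not compared, so which of the 4 starts is nearest the peak is not known.

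Igf2 promoter, most upstream start: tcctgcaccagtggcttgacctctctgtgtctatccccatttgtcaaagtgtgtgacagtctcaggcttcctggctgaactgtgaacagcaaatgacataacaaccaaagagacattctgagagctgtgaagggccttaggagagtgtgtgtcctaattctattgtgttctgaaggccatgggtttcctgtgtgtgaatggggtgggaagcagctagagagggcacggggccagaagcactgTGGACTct

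Around Dlk1 and Meg3 the HNF4A peaks gathered between the genes. Of 7 HNF4A peaks, 1 lay upstream of Dlk1, 5 in the 80.7 kb between Dlk1 and Meg3, and 1 downstream of Meg3. Neither gene's span, of 7.5 kb for Dlk1 and 30.7 kb for Meg3, met a peak of either factor. Of 250 kb tiles along the autosomes and X, 58.5% held no HNF4A peak and 58.6% no FOXA2 peak. Absence from spans this short is thus ordinary. The 3 FOXA2 peaks all overlapped HNF4A peaks, 1 upstream of Dlk1 and 2 between the genes.

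**Figure D3:**
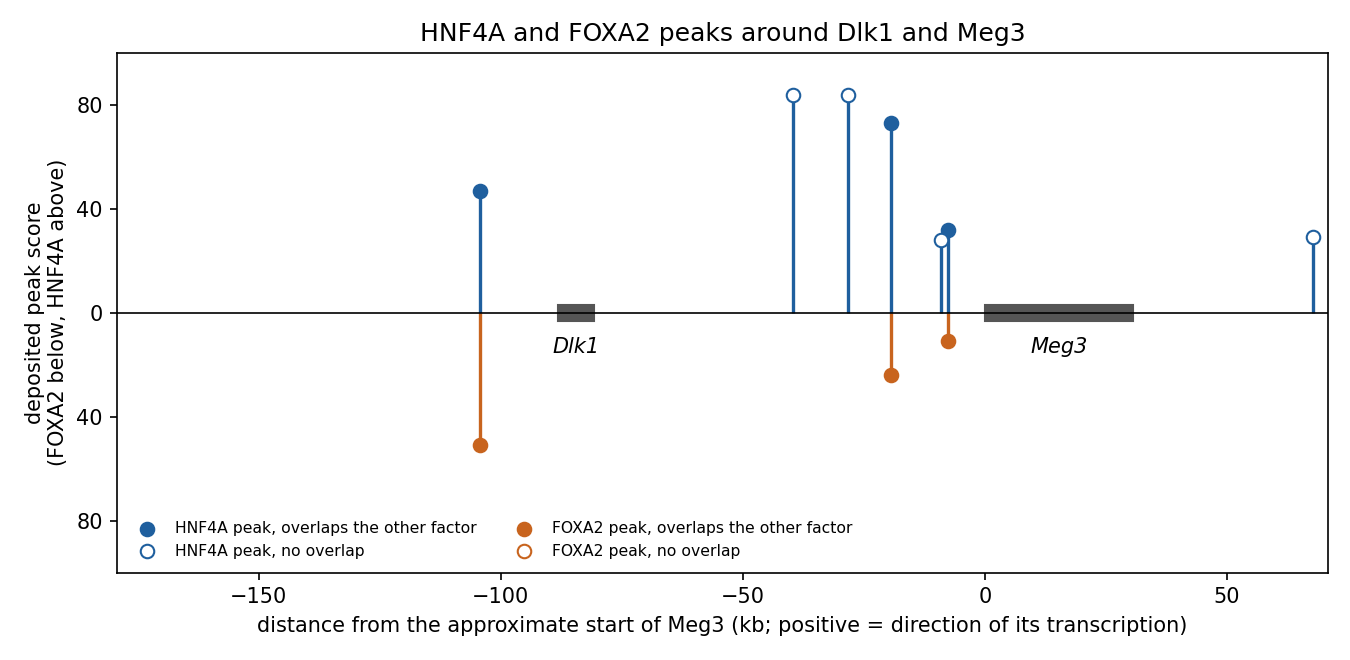
Deposited score of each peak (vertical axis, HNF4A above the line and FOXA2 below) against its distance in kb from the approximate start of Meg3, over the 250 kb window. Each line with a point is 1 peak, filled where it overlaps a peak of the other factor, and grey boxes are the genes; the open HNF4A points with scores of 84 stand between Dlk1 and Meg3, and no peak stands on either gene.

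The nearest site to Dlk1 was shared and lay 16.1 kb upstream of its start. Its HNF4A peak at chr12:110674684-110675107 had a score of 47, with 89.4% of HNF4A peaks lower, and its FOXA2 peak at chr12:110674724-110675056 had a score of 51, with 96.6% of FOXA2 peaks lower. The FOXA2 peak lay wholly within the HNF4A peak, and the centres were 5.5 bp apart. The pair came 144th of 2879. At this site and the one 42.1 kb from H19 the FOXA2 peak had the higher standing in its list, and at the other 4 shared sites the HNF4A peak did.

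Just before the Dlk1 start, RefSeq sequence (GRCm38.p6, plus strand, chr12:109452573-109452822 of that build) holds the forkhead core TGTTTAC at 87 to 81 and again at 67 to 61 bases before the start. It is shown because no FOXA2 peak was listed within 16.1 kb of the approximate start although these letters are present. TGTTTAC on either strand occurs in 3.17% of the 32851 promoters, and 0.0791%, or 26 promoters, hold it at 2 or more places. The count of TGTTTAC at 2 or more places was made after the Dlk1 sequence had been seen. A match of letters is not a binding site, and nothing about FOXA2 at Dlk1 follows from it. The matches are in capitals.

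Dlk1 promoter: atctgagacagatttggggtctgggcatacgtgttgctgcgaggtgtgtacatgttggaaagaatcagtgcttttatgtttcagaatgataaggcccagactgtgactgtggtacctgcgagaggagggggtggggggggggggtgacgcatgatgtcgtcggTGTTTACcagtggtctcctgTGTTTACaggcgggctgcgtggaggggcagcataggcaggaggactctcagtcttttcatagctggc

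The highest HNF4A scores of both windows were found between Dlk1 and Meg3, on a pair of peaks that overlapped no FOXA2 peak. They lay at chr12:110739389-110739751 and chr12:110750714-110751115, 39.6 and 28.3 kb upstream of the Meg3 start. Each had a score of 84, and they tied at rank 125 with 98.9% of HNF4A peaks lower. Only 1.14% of HNF4A peaks scored 84 or more. Their nearest FOXA2 centres were 20220 and 8876 bp away, and in each case this was the FOXA2 peak with a score of 24 described next.

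Closer to Meg3, HNF4A and FOXA2 overlapped at 2 sites. At 19.4 kb upstream of the Meg3 start, the HNF4A peak chr12:110759555-110759992 had a score of 73 and the FOXA2 peak chr12:110759630-110759951 a score of 24. Standings in the lists were 97.7% and 78.3% lower, and the pair came 396th. At 7.5 kb upstream, the HNF4A peak chr12:110771400-110771957 had a score of 32 and the FOXA2 peak chr12:110771541-110771817 a score of 11, the lowest of that list. The centres of this second pair were 0.5 bp apart, so a FOXA2 peak of the lowest score sat in the middle of the HNF4A peak. These were the nearest peaks of both factors to the Meg3 start.

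An HNF4A peak without FOXA2 stood 9.1 kb upstream of Meg3, at chr12:110769852-110770276, with a score of 28. The last HNF4A peak, at chr12:110846853-110847285, lay 37.2 kb beyond the end of Meg3, with a score of 29 and 66.6% of the list lower. Rtl1, an imprinted coding gene, follows Meg3 in the RefSeq gene order. The first RefSeq promoter of Meg3 is shown for comparison with that of Dlk1: the 250 bases before it (GRCm38.p6, plus strand, chr12:109540746-109540995 of that build) hold none of the FOXA or HNF4 letters searched, which says only that these letters are not in this window.

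Meg3 promoter, first start: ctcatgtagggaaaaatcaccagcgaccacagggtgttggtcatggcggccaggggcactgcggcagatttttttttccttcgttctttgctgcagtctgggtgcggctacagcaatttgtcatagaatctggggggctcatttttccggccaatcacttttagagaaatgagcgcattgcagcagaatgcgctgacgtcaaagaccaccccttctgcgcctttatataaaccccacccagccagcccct

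For FOXA the words searched were TGTTTAC as well as TGTTTGC and also TATTTAC. For HNF4 they were CAAAGTCCA as well as CAAAGTTCA and also CAAAGGTCA, with the short word AGTCCA. Both strands were read. AGTCCA lies within CAAAGTCCA, so a match of the longer word is also one of the shorter. Any FOXA word occurred in 9.73% of the 32851 promoters and any HNF4 word in 12.2%. RefSeq gave 7 promoters for Igf2, Dlk1 and Meg3, of which 2 held a word, and none was matched for H19.

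Over both windows, 6 of 14 HNF4A peaks and 6 of 10 FOXA2 peaks were shared, as 6 pairs. In the whole lists 24.4% of HNF4A peaks overlapped FOXA2 and 30.7% of FOXA2 peaks overlapped HNF4A. The 24 peaks merged into 18 sites, of which 8 had HNF4A only and 4 had FOXA2 only. The 4 sites with FOXA2 alone were all around H19 and Igf2. Centres of the 6 pairs were between 0.5 and 67 bp apart, and 100% of them were within 100 bp, against 72.5% of all 2879 pairs.

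Scores of the HNF4A peaks stood high in their list. Of the 14, 13 were at or above the list's median score, against 52.5% of all HNF4A peaks, and the exception was the peak in Igf2. At or above the 90th percentile of the list, a score of 47, were 6 of 14, against 10.6% of all HNF4A peaks. The median score was 35 around H19 and Igf2, 47 around Dlk1 and Meg3 and 23 in the whole list. The lower quartile of the HNF4A peaks in both windows was 29.75, above the whole-list median.

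FOXA2 peaks were more mixed. Of the 10, 6 were at or above the list's median score, against 53.5% of all FOXA2 peaks, which is near the background. At or above the 90th percentile, a score of 34, were 3 of 10, against 10.2% of all FOXA2 peaks. Another 2 were at the lowest score, 11. The median score was 17 around H19 and Igf2, 24 around Dlk1 and Meg3 and 15 in the whole list.

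**Figure D4:**
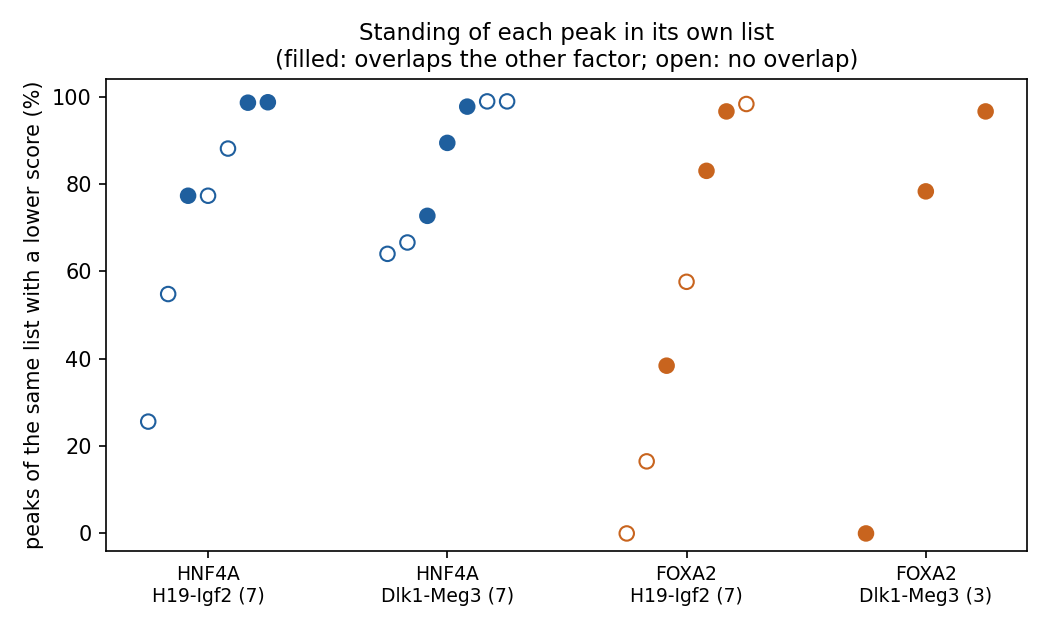
Percent of peaks in the same list with a lower score (vertical axis), for each HNF4A and FOXA2 peak of each window, with the number of peaks in brackets; points are filled where the peak overlaps the other factor. HNF4A points lie above 50% apart from the peak in Igf2 at 25.6%, while FOXA2 points run from 0.0% to 98.3%.

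High scores did not always come with an overlap. Of the 5 highest HNF4A peaks, with scores of 73 to 84, 3 were shared. In the whole list 47.2% of the 267 HNF4A peaks with scores of 73 or more overlapped FOXA2. Among the 3 FOXA2 peaks that scored highest, from 51 to 61, 2 were shared, and 68.5% of the 314 FOXA2 peaks that high overlapped HNF4A. Neither count was tested against the share in its list.

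Peak density was set against tiles of the same length laid without gaps along the autosomes and X. HNF4A peaks numbered at least 7 in 4.25% of 8546 tiles of 300 kb, and FOXA2 peaks did so in 1.45%. Both held in 51 tiles, 0.597%. The mean was 1.36 HNF4A and 1.09 FOXA2 peaks per 300 kb tile, and 54.9% of tiles had no HNF4A peak.

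For the Dlk1 and Meg3 window, 2.85% of 10261 tiles of 250 kb held at least 7 HNF4A peaks and 11.6% held at least 3 FOXA2 peaks. Both held in 2.03% of tiles. FOXA2 peaks were thus less crowded here than around H19, by the shares of 11.6% and 1.45%. Tiles include stretches with no gene, and the genes had been named with earlier results of these lists known, so the shares describe the windows and test nothing.

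**Figure D5:**
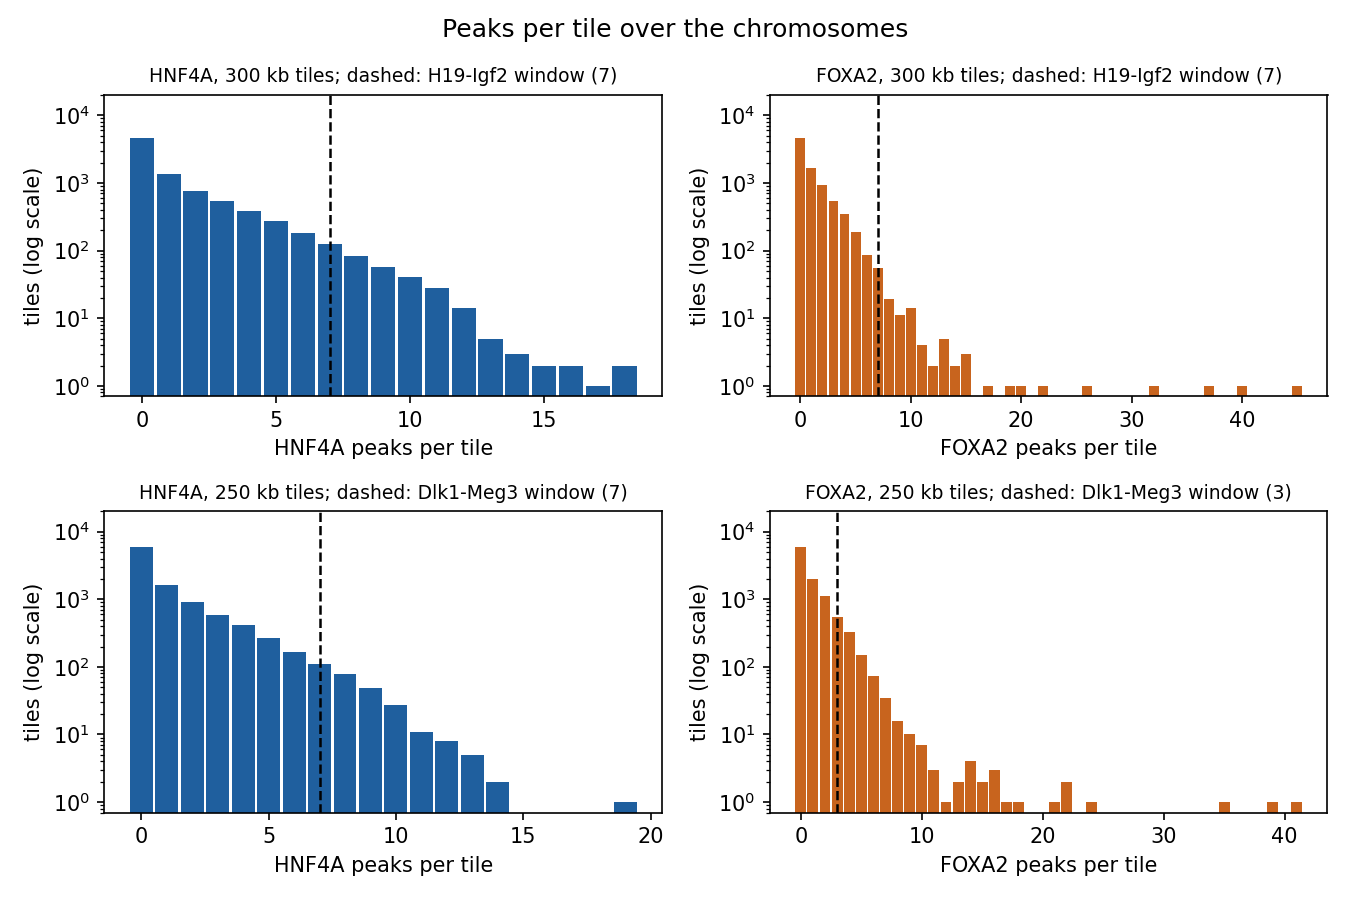
Number of tiles (vertical axis, log scale) by the number of HNF4A or FOXA2 peaks per tile, for tiles of 300 kb and of 250 kb along the autosomes and X; the dashed line marks the window around H19 and Igf2 (upper panels, 7 and 7 peaks) or Dlk1 and Meg3 (lower panels, 7 and 3 peaks). The windows stand to the right of most tiles, and some tiles hold up to 45 FOXA2 peaks.

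Widths were ordinary for the lists. The 14 HNF4A peaks were 363 to 694 bp wide with a median of 435.5 bp, against 430 bp over all HNF4A peaks. The 10 FOXA2 peaks were 277 to 508 bp wide with a median of 343 bp, against 367 bp. The narrowest peak was the FOXA2 peak 7.5 kb upstream of Meg3, and the broadest the HNF4A peak at the end of H19.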

How the data were processed

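For each of 3 libraries (HNF4A, FOXA2, input) the authors deposited a list of regions with a whole-number score per region. Per the submitters' processing notes, regions refer to mm9. Neither aligner, caller, threshold nor score definition was given in the sources used here. Depth is unknown. Wilson intervals were computed only for shares of tiles, to compare alternatives. Positions were read as 1-based with both ends included. Peaks meeting a window were kept; an overlap of at least 1 bp made a peak shared. Distances run from peak centres to the approximate gene edges. Tiles ran from the first to the last region of each chromosome, and peaks were assigned by centre. Every peak in the windows is named, by a rule that chose none for its score. The windows, genes and alternatives were chosen with earlier results of these data known. Without an mm9 sequence, peak sequences were not analysed here; promoters are RefSeq's in GRCm38.p6, and coordinates of the 2 builds were never compared. Overlap and tiling were tested on simulated data. Python 3.11.15, numpy 2.4.6, pandas 2.3.3 and matplotlib 3.10.9 were used.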

Additional observations from a re-analysis of the deposited data

How the results depend on the processing

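Of 20 alternative values over 10 counts and shares, 19 stayed within 1.5 times the reported count or within the 95% Wilson interval of the reported share. For the shares this interval served only as a yardstick. Moved tiles recount the same peaks, so it does not measure how far a share may move. The exception among the 20 was the number of FOXA2 peaks around H19 and Igf2, which fell from 7 to 4 when only peaks at or above the list's median score were kept. That filter keeps 53.5% of all FOXA2 peaks, so the fall is near what it does to the whole list. Around Dlk1 and Meg3 it took the FOXA2 count from 3 to 2, which is at the limit of 1.5 times and was counted as within it. With 50% reciprocal overlap 5 of the 6 pairs remained counted for each factor. With centres within 100 bp all 6 were, which says nothing about stability. The 6 pairs had centres at most 67 bp apart, and peaks of these widths with centres within 100 bp must overlap. Windows 50 kb wider on each side, or peaks within 10 kb of input left out, gave the same counts for both factors. Neither alternative could change a count here. No listed peak lay outside a window within 50 kb of its edge, and the nearest input region was 750.7 kb from one. Their places among the 19 therefore say nothing about stability. No replicate could be left out with 1 library per group. A peak missing from a list may lie under its threshold, and the depth that would settle this is unknown.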

Other observations

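No HNF4A peak was listed for 401.2 kb before the first or 377.5 kb after the last of those around H19 and Igf2, and none for 581.0 kb before or 415.3 kb after those around Dlk1 and Meg3. For FOXA2 the same stretches were 224.5 and 567.3 kb around H19 and Igf2, and 549.1 and 142.6 kb around Dlk1 and Meg3. Along the autosomes and X, 54.9% of 300 kb tiles held no HNF4A peak and 54.1% no FOXA2 peak. The nearest input region lay 775.1 kb from the edge of the first window and 750.7 kb from that of the second.

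Between neighbouring HNF4A peaks of the chromosome 7 window, the longest gap was 88.8 kb, from the peak at the 3' end of H19 to the peak in Igf2. On chromosome 12 it was 74.9 kb and took in all of Meg3. Between neighbouring FOXA2 peaks of the chromosome 12 window, the longest gap was 84.6 kb and took in all of Dlk1 and both HNF4A peaks with a score of 84.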
